A study of Mus musculus with 6 samples.

Results

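The miR-25, miR-32, miR-92 and miR-363 family is a set of small RNAs that carry the same seed, the short stretch near the 5′ end by which a microRNA (miRNA) recognises messenger RNAs. The members were taken by their mature names, and 7 of the 1542 entries of the count table matched: mmu-miR-25-3p, mmu-miR-32-5p, mmu-miR-92a-3p, mmu-miR-92b-3p, mmu-miR-92b-5p, mmu-miR-363-3p and mmu-miR-363-5p (written without the mouse prefix below). Kidney small RNA was sequenced from 17-week-old female mice, with 3 libraries from MRL/lpr mice (genotype label MRL/MpJ-Fas<lpr>/J) and 3 from C57BL/6 mice, which served as wild-type controls. The lpr mutation of Fas on the MRL background leads to lupus-like disease with nephritis, and C57BL/6 differs from MRL/lpr in background too, so strain, mutation and disease cannot be told apart. Whether every library came from its own animal is not stated in the labels. The question asked here was whether miR-92b-3p differed between the strains by itself or together with the other miRNAs of its seed. The family was chosen by the strain difference in the counts of miR-92b-3p in these same libraries, so the values of that miRNA are given as a description.

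A miRNA guides the Argonaute protein to messenger RNAs that pair with its seed, which lowers their translation and stability, so miRNAs with the same seed can act on overlapping sets of messages. This family is best known for repressing the pro-apoptotic gene Bcl2l11 (Bim), and miR-92a belongs to the miR-17-92 cluster, whose overexpression in mouse lymphocytes causes lymphoproliferation and autoimmunity. In blood vessels miR-92a is known as a repressor of angiogenesis, and miR-25 and miR-92a are abundant in red blood cells.

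The mature sequences (RefSeq, GRCm38.p6) show what the members share and where they part. They are printed 5′ to 3′, and the capitals mark the seed, bases 2 to 8.
miR-92b-3p: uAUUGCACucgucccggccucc
miR-92a-3p: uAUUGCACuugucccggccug
miR-25-3p: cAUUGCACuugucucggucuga
miR-32-5p: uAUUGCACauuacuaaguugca
miR-363-3p: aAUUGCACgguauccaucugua
miR-92b-5p: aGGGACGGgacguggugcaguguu
The first 5 have the seed AUUGCAC, while the 5p arm of miR-92b does not, so the shared-seed label holds for 5 of the 6 members matched to a sequence. miR-363-5p was not matched, and its seed was not checked. Among the 1190 entries of the table with a miRBase name, 996 matched a RefSeq mature sequence by name, and these 5 were the only ones of the 996 with AUUGCAC at bases 2 to 8. In all of RefSeq's 1679 mouse mature miRNAs the seed was found in 6 (0.357%), the sixth being miR-367-3p.

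Outside the seed miR-92a-3p, miR-92b-3p and miR-25-3p are close to each other, and miR-32-5p and miR-363-3p lie further off. Counting positions from 1 at the 5′ end, miR-92a-3p and miR-92b-3p were identical at 19 of 21 compared positions, with U10C and G21C as the changes that turn the miR-92a-3p bases into those of miR-92b-3p. miR-25-3p matched miR-92a-3p at 18 of 21 positions (U1C, C14U and C18U, with the base of miR-92a-3p first). miR-32-5p matched miR-92a-3p at 11 and miR-363-3p at 10 of 21 positions. Behind the seed, G and C made up 78.6% of the bases of miR-92b-3p, 69.2% of miR-92a-3p, 50.0% of miR-25-3p, 42.9% of miR-363-3p and 28.6% of miR-32-5p. The labels leave unsaid how the authors counted reads that match more than 1 entry, so the split between miR-92a-3p and miR-92b-3p, the closest pair, is less certain than their sum.

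The members come from 6 hairpins at 5 places in the genome (GRCm38). The miR-92b hairpin lies on chromosome 3 at 89227116 to 89227198, minus strand, overlaps no other gene in GENCODE M21, and has no other RefSeq miRNA hairpin within 10 kb. The miR-32 hairpin, on chromosome 4 at 56895229 to 56895298, minus strand, lies in an intron of Tmem245 and likewise has none within 10 kb. The miR-25 hairpin, on chromosome 5 at 138165321 to 138165404, minus strand, lies in Mcm7, where the only exon it overlaps belongs to a retained-intron transcript, 119 bases from the miR-93 hairpin. miR-92a-3p is made from both Mir92-1, in the miR-17-92 host transcript Mir17hg on chromosome 14 (115044427 to 115044506, plus strand), and Mir92-2 on the X chromosome (52741838 to 52741928, minus strand). The miR-363 hairpin (X chromosome, 52741693 to 52741767, minus strand) lies 71 bases from Mir92-2.

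The libraries held 5259528 to 6460200 counts in MRL/lpr and 5430246 to 6773829 in C57BL/6. Levels below are CPM, a library's counts scaled to a common total, after TMM scaling, which also adjusts for differences in composition. All 4 tubule markers chosen to check the tissue (miR-192-5p, miR-194-5p, miR-204-5p and miR-30a-5p) were abundant, with summed levels of 61323 to 72222 CPM in MRL/lpr and 37901 to 65354 CPM in C57BL/6, against at most 8.73 CPM in MRL/lpr and 11.2 CPM in C57BL/6 for the liver miRNA miR-122-5p. C57BL/6 replicate 2 stood apart. Its 7 leukocyte markers summed to 28916 CPM, against 6225 and 6053 CPM in C57BL/6 replicates 1 and 3, and its 5 erythrocyte markers to 596 CPM, against 2842 and 3502 CPM. In MRL/lpr the leukocyte sums were 10528, 9387 and 11083 CPM and the erythrocyte sums 3497, 3477 and 4312 CPM. Most of each leukocyte sum was miR-146a-5p, at 25574 CPM in C57BL/6 replicate 2 and 5011 and 4765 CPM in C57BL/6 replicates 1 and 3. In MRL/lpr miR-146a-5p had 7314 to 8393 CPM. Each of the 7 leukocyte markers was higher in C57BL/6 replicate 2 than in C57BL/6 replicates 1 and 3. None of the markers in any list was at 0 in every library. In these lists, miR-204-5p of the tubule (log2 fold change 1.52) and miR-155-5p of leukocytes (1.30) were called higher in MRL/lpr. None of the erythrocyte list was called. The other leukocyte markers were not called and split in sign. miR-142a-3p (1.45), miR-142a-5p (1.21), miR-150-5p (0.24) and miR-342-3p (0.014) lay above 0, and miR-146a-5p (-0.55) and miR-223-3p (-0.42) below. The 3 muscle markers summed to 121 to 172 CPM in MRL/lpr and 164 to 232 CPM in C57BL/6, with none called. The 3 neuroendocrine markers were the 1 list whose sums did not overlap, at 978, 1009.6 and 849.6 CPM in MRL/lpr against 1185, 1249 and 1308 CPM in C57BL/6, and miR-375-3p among them was called lower in MRL/lpr (log2 fold change -1.19 ± 0.20, edgeR adjusted p = 0.00793). The other members of this list, miR-7a-5p (log2 fold change 0.27, edgeR adjusted p = 0.419) and miR-124-3p (0.22, edgeR adjusted p = 0.812), lay above 0. The lower neuroendocrine sums thus came from miR-375-3p and not from the list as a whole. In whole kidney, fewer cells of a type and less RNA per cell cannot be told apart.

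Among the seed members, miR-92b-3p was higher in MRL/lpr kidneys, miR-32-5p lay higher by a smaller amount that missed the threshold, and the most abundant members, miR-92a-3p and miR-25-3p, lay at or below their C57BL/6 levels. Of the 7 members 6 had enough counts to be tested, and 1, miR-92b-3p, was called (edgeR's quasi-likelihood test at an adjusted p under 0.05, Benjamini-Hochberg), against 6.21% of the 451 miRNAs tested (4.21% called higher in MRL/lpr). Since that call was known when the members were chosen, nothing is read from the count. Of the 6, 3 had a log2 fold change (MRL/lpr over C57BL/6) above 0 and 3 below, with a median of 0.11, beside -0.027 over all tested miRNAs. The groups did not overlap for 2 of the 6, miR-92b-3p and miR-32-5p, against 28.8% of all tested miRNAs. As miR-92b-3p was chosen by its difference, nothing is read from this count either.

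miR-92b-3p, the lone member on chromosome 3, had 455, 518 and 424 CPM in MRL/lpr replicates 1 to 3, against 174, 191 and 207 CPM in C57BL/6 replicates 1 to 3. The lowest MRL/lpr library was above the highest C57BL/6 library by a wide margin, and the spread within each strain was small. The fitted fold was 2.44 (log2 fold change 1.29 ± 0.19 SE, 95% interval 0.85 to 1.72), and the edgeR adjusted p on which the choice rests was 0.00577. C57BL/6 replicate 2, with its high leukocyte and low erythrocyte markers, was the middle one of its group for miR-92b-3p, and without it the log2 fold change was 1.30.

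miR-32-5p, from an intron of Tmem245, had 240.3, 190.4 and 279.8 CPM in MRL/lpr against 155, 95.1 and 130.1 CPM in C57BL/6. Here too every MRL/lpr library was above every C57BL/6 library, although the nearest libraries of the groups lay closer together than for miR-92b-3p. The fitted log2 fold change was 0.90 ± 0.25 SE (95% interval 0.35 to 1.46, edgeR adjusted p = 0.0662), so it did not pass over all miRNAs. It did pass with DESeq2 (adjusted p = 0.0114), with edgeR on library size alone (adjusted p = 0.0343), without a filter (adjusted p = 0.0289) and with a filter of 10 CPM (adjusted p = 0.0400), and over all alternatives the adjusted p ran from 0.0114 to 0.248. The other arm of its hairpin, miR-32-3p, had 26.5, 28.7 and 31.5 CPM in MRL/lpr and 28.2, 18.5 and 19.0 CPM in C57BL/6, with overlapping groups (log2 fold change 0.40 ± 0.24, edgeR adjusted p = 0.375).

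miR-92a-3p, the miR-17-92 and miR-106a-363 cluster member, had 729.7, 1271 and 797 CPM in MRL/lpr against 1119.5, 1348 and 1776 CPM in C57BL/6. MRL/lpr replicate 2 lay among the C57BL/6 libraries, and the other MRL/lpr libraries lay below all of them. Its log2 fold change of -0.60 ± 0.26 SE (95% interval -1.18 to -0.026) did not pass after adjustment (edgeR unadjusted p = 0.0421, adjusted p = 0.216), and without MRL/lpr replicate 2 it was -0.92 with an edgeR adjusted p of 0.0574. miR-25-3p, the Mcm7 member, had 961, 831 and 946 CPM in MRL/lpr against 1075, 1287 and 811 CPM in C57BL/6. Its groups overlapped, with a log2 fold change of -0.21 ± 0.21 SE (95% interval -0.67 to 0.24, edgeR adjusted p = 0.586). Leaving out C57BL/6 replicate 2 gave -0.018, and leaving out C57BL/6 replicate 3 gave -0.41, so single C57BL/6 libraries set its size. In C57BL/6 replicate 2, where the erythrocyte markers were lowest, miR-25-3p was at its highest of all 6 libraries and miR-92a-3p was the middle one of its strain. The part of blood and other cells in these values was not tested.

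**Figure D1:**
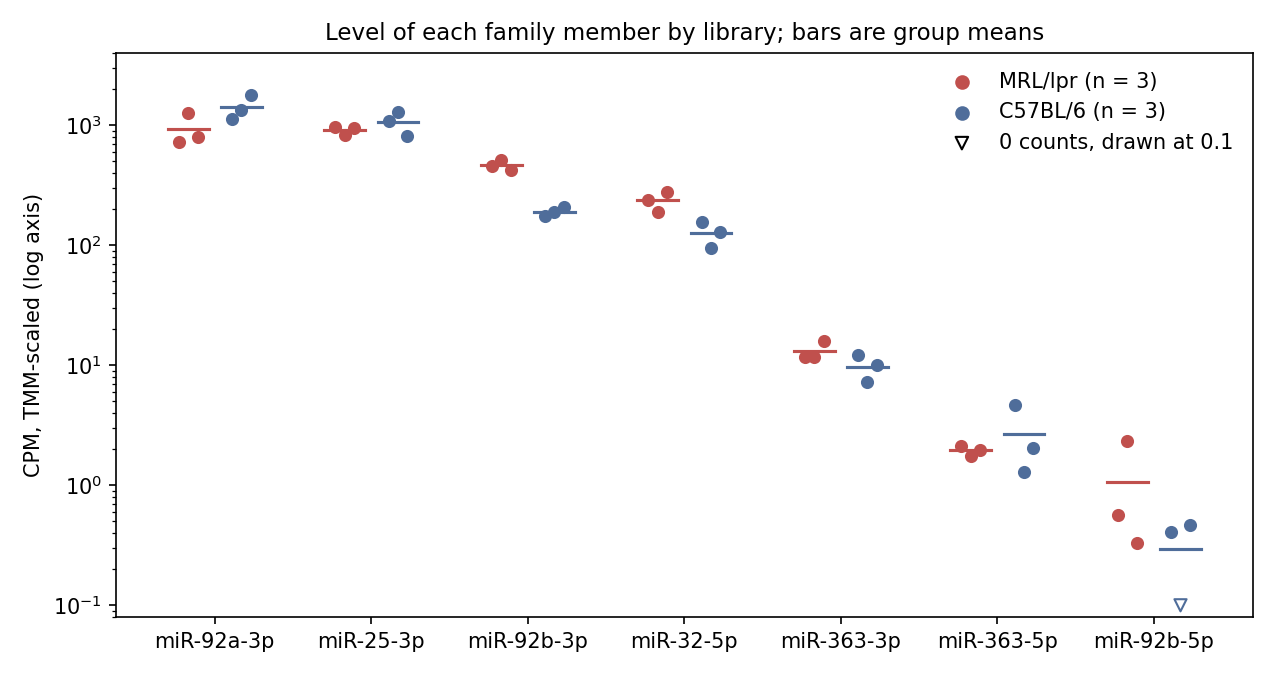
Level of each of the 7 family members in each library (CPM after TMM scaling, log axis), with MRL/lpr libraries in red to the left of C57BL/6 libraries in blue and bars at the group means. The groups are apart for miR-92b-3p (424 to 518 CPM in MRL/lpr, 174 to 207 CPM in C57BL/6) and miR-32-5p, and overlap for the others; an open triangle marks a library with 0 counts.

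miR-363-3p, the X-linked member, was far less abundant, at 11.7, 11.6 and 16.1 CPM in MRL/lpr against 12.1, 7.23 and 9.97 CPM in C57BL/6. The highest C57BL/6 library lay above 2 of the MRL/lpr libraries, and the log2 fold change of 0.43 ± 0.32 SE (95% interval -0.27 to 1.14) did not pass (edgeR adjusted p = 0.488). Its partner arm miR-363-5p, with 15, 9 and 12 counts in MRL/lpr and 23, 8 and 13 counts in C57BL/6, also did not pass (log2 fold change -0.42 ± 0.51, edgeR adjusted p = 0.679), and its sign turned without C57BL/6 replicate 1 (0.19). miR-92b-5p did not reach the filter, with 4, 12 and 2 counts in MRL/lpr and 2, 0 and 3 counts in C57BL/6, and MRL/lpr replicate 2 held more of its counts than all other libraries together. A count of 0 allows up to 3 counts, which is 0.482 CPM in that C57BL/6 library, and this limit covers counting error only. Fitted without a filter, its log2 fold change was 1.76 ± 0.95 SE (edgeR adjusted p = 0.464), an estimate too wide at this depth to tell a difference like that of the 3p arm from none.

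**Figure D2:**
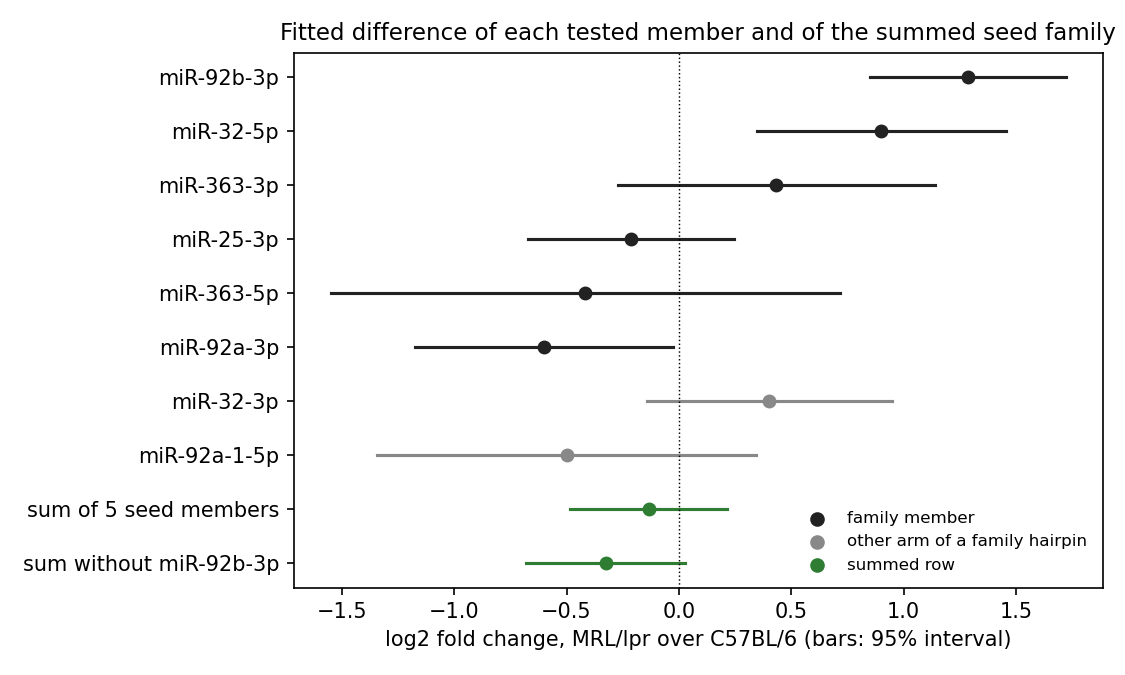
Fitted log2 fold change (MRL/lpr over C57BL/6) with its 95% interval for the 6 tested members (black), the 2 tested other arms of their hairpins (grey) and the summed seed family with and without miR-92b-3p (green). miR-92b-3p at 1.29 and miR-32-5p at 0.90 have intervals above 0, miR-92a-3p at -0.60 has one just below it, and both sums have intervals that include 0.

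The order of the mean levels of the seed members was the same in both strains: miR-92a-3p (933 ± 295 CPM in MRL/lpr and 1414 ± 333 CPM in C57BL/6), miR-25-3p (913 ± 71.0 CPM in MRL/lpr and 1058 ± 238 CPM in C57BL/6), miR-92b-3p (466 ± 47.6 CPM in MRL/lpr and 191 ± 16.4 CPM in C57BL/6), miR-32-5p (237 ± 44.8 CPM in MRL/lpr and 127 ± 30.2 CPM in C57BL/6) and miR-363-3p (13.1 ± 2.53 CPM in MRL/lpr and 9.76 ± 2.43 CPM in C57BL/6; SD, n = 3 in each strain). The ranges of miR-92a-3p and miR-25-3p, neighbours in this order, overlapped in both strains. Within libraries miR-92a-3p stood at 0.759, 1.53 and 0.843 times miR-25-3p in MRL/lpr and at 1.04, 1.05 and 2.19 times in C57BL/6, so it was the higher one in all 3 C57BL/6 libraries and in 1 of 3 MRL/lpr libraries. These mature RNAs are 21 or 22 bases long, so CPM needs no correction for length, but adapter ligation favours some ends over others and levels of different miRNAs are only roughly comparable. Among the 451 tested miRNAs, miR-92b-3p ranked between 85 and 130 by level in the 6 libraries, and miR-92a-3p between 50 and 78.

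Added together, the 5 miRNAs of the seed did not pass the test between the strains, although their make-up differed. The summed family had 2398, 2822 and 2463 CPM in MRL/lpr against 2537, 2928 and 2935 CPM in C57BL/6, with overlapping groups. Fitted as 1 row among all miRNAs, it gave a log2 fold change of -0.14 ± 0.16 SE (95% interval -0.48 to 0.21, edgeR adjusted p = 0.662), and with library size alone the sign turned (0.014). Without miR-92b-3p the other 4 summed to 1943, 2304 and 2038 CPM in MRL/lpr and 2362, 2737 and 2728 CPM in C57BL/6. These groups did not overlap, but the sum did not pass (log2 fold change -0.33 ± 0.16 SE, 95% interval -0.68 to 0.029, edgeR adjusted p = 0.264). As a share of all counts the family took 0.269% ± 0.00685 in MRL/lpr and 0.267% ± 0.0340 in C57BL/6 (SD, n = 3 each).

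Within the seed family, miR-92b-3p made up 19.0% (95% exact binomial interval 18.4 to 19.6), 18.3% (17.7 to 19.0) and 17.2% (16.6 to 17.8) of the counts in MRL/lpr replicates 1, 2 and 3. In C57BL/6 replicates 1, 2 and 3 its shares were 6.87% (6.43 to 7.33), 6.52% (6.16 to 6.89) and 7.06% (6.69 to 7.43). The intervals cover counting error only. The shares lie close together within each strain and far apart between them, and this composition does not depend on the scaling of the libraries. miR-32-5p made up 9.38% ± 2.37 in MRL/lpr and 4.60% ± 1.44 in C57BL/6, without overlap, and miR-92a-3p 35.9% ± 7.94 in MRL/lpr and 50.2% ± 8.97 in C57BL/6, with overlap (SD, n = 3 each). miR-25-3p made up 40.1%, 29.5% and 38.4% in MRL/lpr and 42.4%, 44.0% and 27.6% in C57BL/6, with overlap. Shares of 1 whole move against each other, so a larger share of one member lowers the others by construction.

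**Figure D3:**
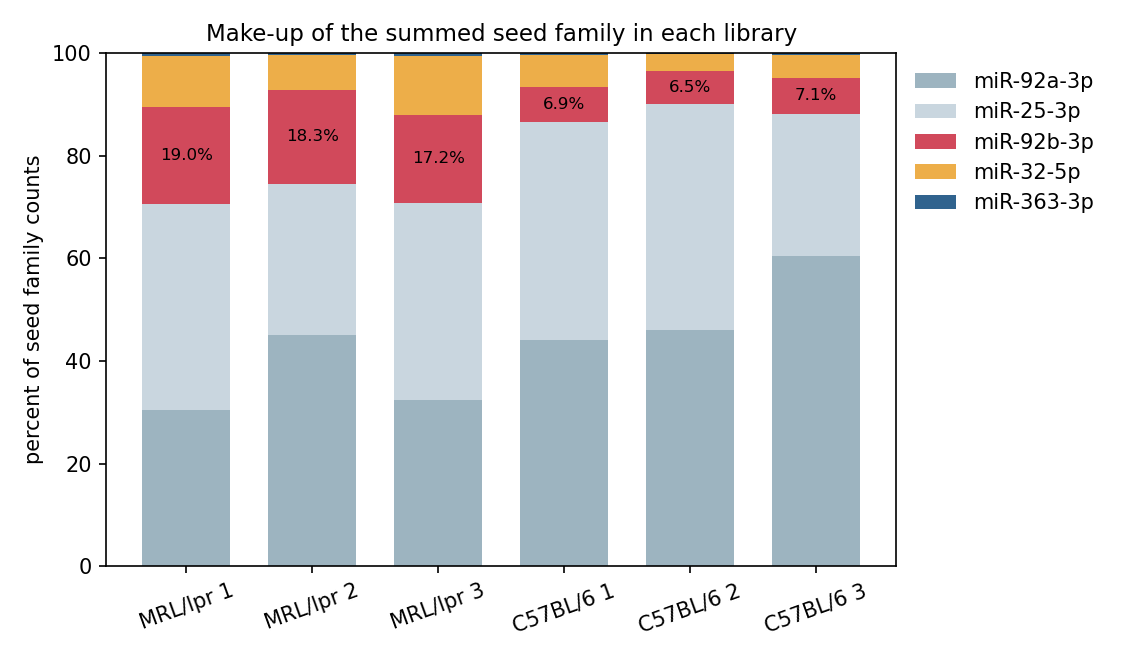
Make-up of the summed seed family in each library, as the percent of its counts that each of the 5 members took; the 3 MRL/lpr libraries stand left of the 3 C57BL/6 libraries. The red band, miR-92b-3p, takes 17.2% to 19.0% in MRL/lpr and 6.52% to 7.06% in C57BL/6, while the split between miR-92a-3p and miR-25-3p varies between libraries of the same strain.

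Whether miR-92b-3p differed by itself was read from its ratio to each other seed member within a library. These ratios come from the contrast that led to the choice of miR-92b-3p, so no test was run on them. Against miR-92a-3p, miR-92b-3p stood at 0.623, 0.407 and 0.532 in MRL/lpr and at 0.156, 0.142 and 0.117 in C57BL/6. On the log2 scale, after adding 1 CPM, this ratio averaged -0.96 ± 0.31 in MRL/lpr and -2.86 ± 0.21 in C57BL/6, a difference of 1.90 (SD, n = 3 each). Against miR-25-3p the log2 ratio averaged -0.97 ± 0.25 in MRL/lpr and -2.44 ± 0.42 in C57BL/6, a difference of 1.47, and against miR-363-3p 5.05 ± 0.37 in MRL/lpr and 4.18 ± 0.40 in C57BL/6, a difference of 0.88. None of these 3 ratios overlapped between the strains, but for miR-363-3p the nearest libraries almost met. Without the added 1 CPM, miR-92b-3p stood at 26.41 times miR-363-3p in MRL/lpr replicate 3 and at 26.40 times in C57BL/6 replicate 2. Against the sum of the other 4 the log2 ratio was -2.17 ± 0.086 in MRL/lpr and -3.77 ± 0.062 in C57BL/6, a difference of 1.60.

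miR-32-5p was the exception. miR-92b-3p stood at 1.89, 2.72 and 1.52 times its level in MRL/lpr and at 1.12, 2.01 and 1.59 times in C57BL/6. These groups overlapped, and the difference of the mean log2 ratios, 0.38, was smaller than the SD within either strain (0.42 in each). Relative to miR-92a-3p, miR-32-5p itself averaged a log2 ratio of -1.95 ± 0.68 in MRL/lpr and -3.47 ± 0.55 in C57BL/6, and relative to miR-25-3p -1.96 ± 0.19 in MRL/lpr and -3.05 ± 0.60 in C57BL/6, in both cases without overlap.

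**Figure D4:**
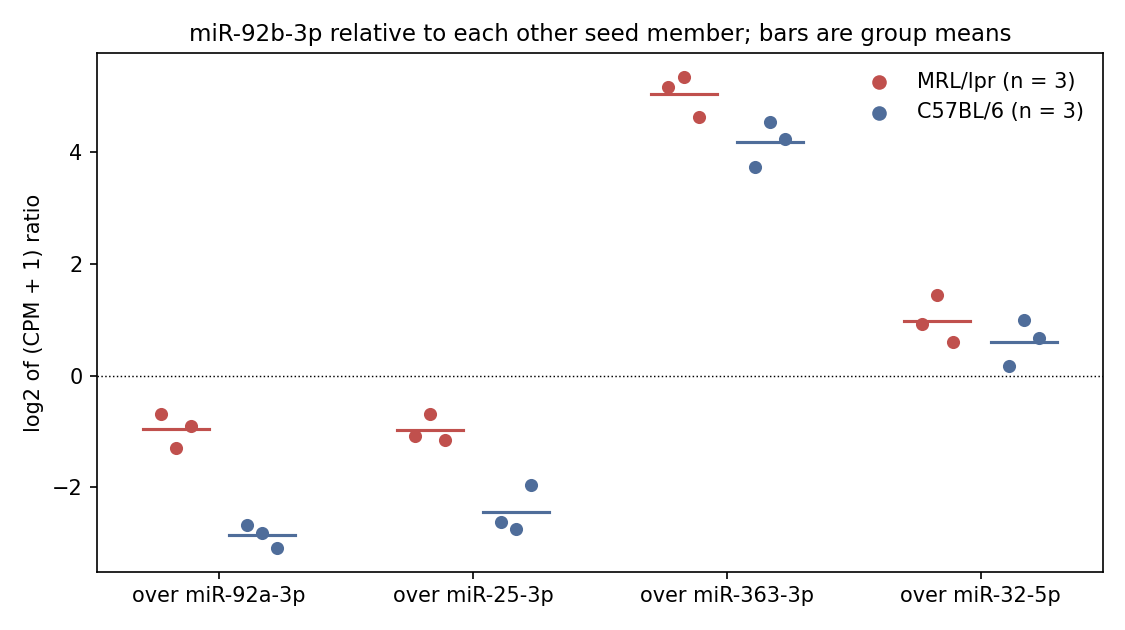
Log2 ratio of miR-92b-3p to each other seed member in each library (CPM plus 1), with MRL/lpr in red left of C57BL/6 in blue and bars at the group means. The groups are apart over miR-92a-3p and miR-25-3p, with differences of 1.90 and 1.47. They almost meet over miR-363-3p, with a difference of 0.88, and overlap over miR-32-5p, with a difference of 0.38.

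If reads of miR-92a-3p and miR-92b-3p were exchanged between the entries, their sum would be unaffected. The sum averaged 1398 ± 339 CPM in MRL/lpr and 1605 ± 350 CPM in C57BL/6 (SD, n = 3 each), with a log2 fold change of -0.20 ± 0.23 SE (edgeR adjusted p = 0.661). miR-92b-3p took 38.4%, 28.9% and 34.7% of this pair in MRL/lpr and 13.5%, 12.4% and 10.4% in C57BL/6. Whether the counting moved reads between the entries was not tested.

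The neighbours of the clustered members, transcribed with them, gave no call. Of 21 arms listed from the miR-17-92, miR-106a-363 and miR-106b-25 clusters, 18 had an entry and 11 could be tested. No arm passed in either direction, against 6.21% of all tested miRNAs (edgeR adjusted p from 0.251 up), and 0 of the 11 had an unadjusted p under 0.05, against 20.8% of all. For a list of 11, a count of 0 calls lies near the background of 6.21%. The median log2 fold change of the 11 was 0.12, beside -0.027 over all tested miRNAs. In the miR-17-92 cluster, which supplies many growth-promoting miRNAs, 4 of 6 log2 fold changes were above 0. Its most abundant arm, miR-19b-3p, which is also made from the X chromosome, had 1827, 1302 and 1698 CPM in MRL/lpr against 1839, 2626 and 1936 CPM in C57BL/6 (log2 fold change -0.41 ± 0.20, edgeR adjusted p = 0.284), and miR-20a-5p had a log2 fold change of 0.076 ± 0.21.

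In the miR-106a-363 cluster the 3 tested neighbours and miR-363-3p had log2 fold changes above 0, while miR-363-5p (-0.42) and miR-92a-3p (-0.60), made there in part, were below 0. miR-20b-5p was at 0.20 ± 0.23 and miR-106a-5p at 0.65 ± 0.30 (edgeR adjusted p = 0.251), with 13.7, 13.4 and 22.0 CPM for miR-106a-5p in MRL/lpr and 10.6, 10.6 and 10.1 CPM in C57BL/6. In the miR-106b-25 cluster, miR-93-5p was at -0.21 ± 0.17 and miR-106b-5p at 0.12 ± 0.27, beside -0.21 for miR-25-3p. The 5p arms tell the miR-92a loci apart. miR-92a-1-5p, from chromosome 14, had 29, 20 and 15 counts in MRL/lpr and 22, 37 and 28 in C57BL/6 (log2 fold change -0.50 ± 0.38, edgeR adjusted p = 0.510), while miR-92a-2-5p, from the X chromosome, had 0 in each MRL/lpr library and 1, 0 and 1 in C57BL/6. For miR-92a-2-5p no fold is given, as both strains were at or below 3 counts.

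**Figure D5:**
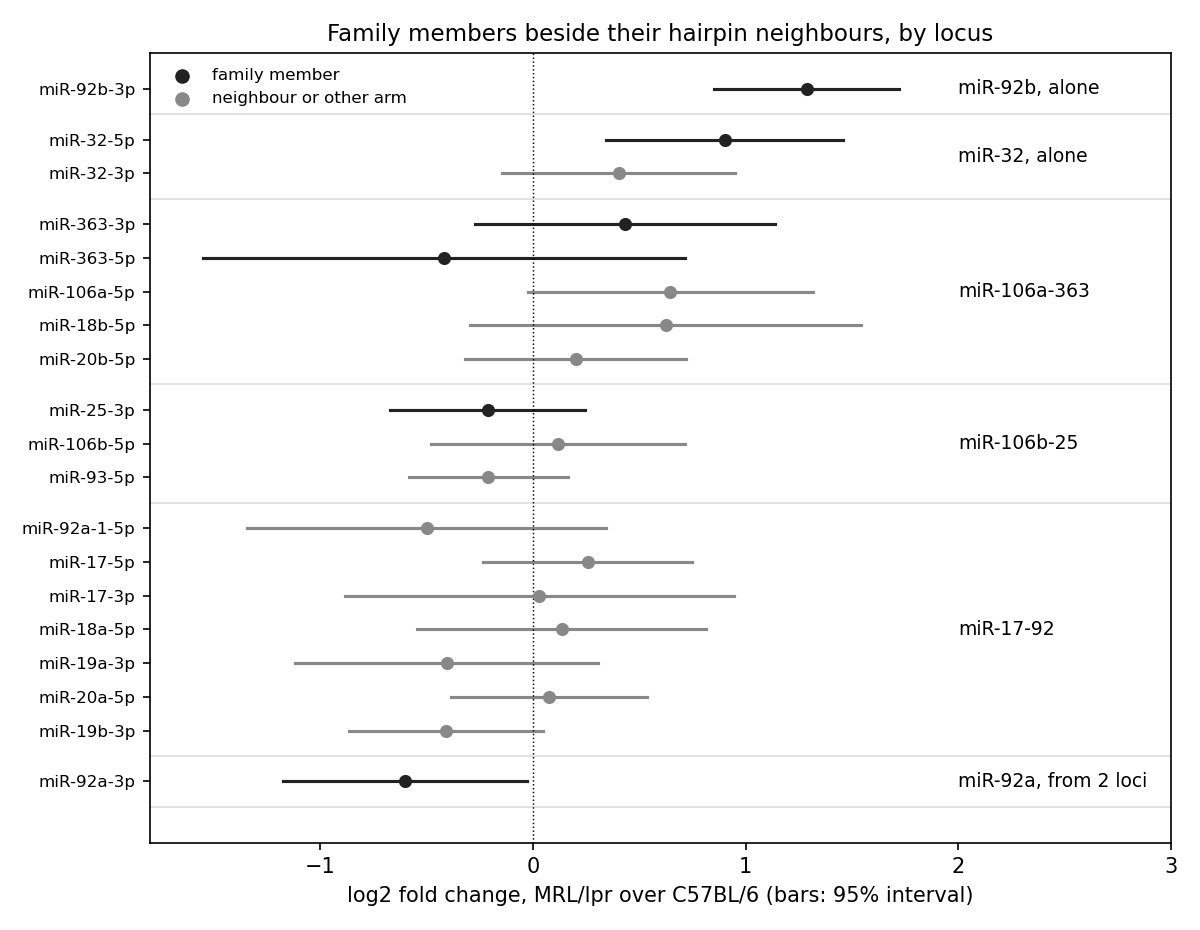
Fitted log2 fold change (MRL/lpr over C57BL/6) with its 95% interval for the family members (black) beside the tested neighbours and other arms of the same locus (grey). miR-92b-3p (1.29) and miR-32-5p (0.90), whose hairpins stand apart from others, have intervals above 0, and the intervals of all 11 cluster neighbours include 0.

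Across the 6 libraries, the patterns most like that of miR-92b-3p belonged to miRNAs outside its seed family. Likeness was the root mean square difference between profiles of log2(CPM + 1), each centred on its own mean, among 277 tested miRNAs with a miRBase name and a mean of at least 10 CPM. The nearest were miR-467a-5p (0.223), miR-204-5p (0.228), miR-708-5p (0.231), miR-125b-5p (0.295) and miR-297a-5p (0.309), with smaller values for closer profiles. miR-708-5p, for example, had 71.9, 65.0 and 75.3 CPM in MRL/lpr against 34.6, 25.7 and 36.5 CPM in C57BL/6. Of the seed members miR-32-5p came 16th of 277 (0.392), miR-363-3p 52nd (0.540), miR-25-3p 179th (0.789) and miR-92a-3p 243rd (0.975). This ordering is a description of 6 libraries in which the strain difference, by which miR-92b-3p was chosen, makes up most of its profile. The seed members were few among the 277, so nothing is read from the nearest profiles lying outside the family.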

How the data were processed

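Small RNA libraries were made from kidney total RNA by adapter ligation, PCR and gel size selection, per the labels' protocols. The authors deposited 1 table of raw counts, whole numbers with no normalization, with an entry for each mature miRNA. Bowtie2, DESeq2 and the build GRCm38.p6 appear in the submitters' processing notes with no role stated; the use of molecular identifiers, strand and the treatment of multiple matches are not given there. Each column was tied to its sample through strain, age and number in its name.

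Counts were analysed with R 4.3.3, edgeR 4.0.16 (filterByExpr with a minimum count of 10 and total of 15, TMM, robust quasi-likelihood fit, group only, Benjamini-Hochberg over 451 miRNAs, threshold 0.05), limma 3.58.1 and DESeq2 1.42.0. Standard errors came from the fold change and its F statistic. Seed sums replaced the members' rows. On simulated data the fit called 39 of 92 2-fold changes, 90 of 97 4-fold changes and 4 of 246 unchanged miRNAs. These rates pool simulated miRNAs and are not rates for single members, for which the fitted intervals are the guide. A member that did not pass may still differ. For miR-25-3p the interval of the log2 fold change (-0.67 to 0.24) leaves out a 2-fold change in either direction. The intervals of the other tested members that did not pass (miR-32-5p, miR-92a-3p, miR-363-3p and miR-363-5p) include a 2-fold change. The members and lists were chosen with earlier results of these data known. Named were the members, their other arms, called or top 2 cluster neighbours and the 5 nearest profiles. P-values measure the spread between these libraries, which may be technical. Alternatives were other scalings, filters, tests, pseudocounts, the replicate number as a block and each library left out; the sum of miR-92a-3p and miR-92b-3p was added after seeing the data.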

Additional observations from a re-analysis of the deposited data

How the results depend on the processing

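The log2 fold change of miR-92b-3p kept its sign and passed in all 16 alternatives that counted it apart from miR-92a-3p (1.18 to 1.43). The summed row of miR-92a-3p and miR-92b-3p, an alternative chosen after seeing the data, gave -0.20. In that row miR-92b-3p took 28.9% to 38.4% of the counts in MRL/lpr and 10.4% to 13.5% in C57BL/6, and miR-92a-3p the rest. The 28 calls among all miRNAs became 64 without a filter, 51 with DESeq2, 13 with the replicate number as a block, and 5 to 54 with 1 library left out (54 without C57BL/6 replicate 2, 15 and 11 without C57BL/6 replicates 1 and 3, and 5 without MRL/lpr replicate 3). The cause was not tested. Same-numbered libraries did not deviate together (correlations across miRNAs of -0.37, 0.034 and -0.37 for replicates 1, 2 and 3), so no pairing by number was seen. Across numbers, MRL/lpr replicate 1 with C57BL/6 replicate 3 gave 0.39 and MRL/lpr replicate 3 with C57BL/6 replicate 1 gave 0.33. Whether libraries shared a batch was not tested. The block changed no call or sign of a family member or sum. The summed seed family reversed to 0.014 with library size alone, which shifted the median of all miRNAs by 0.15, and ran from -0.22 to -0.058 with 1 library left out. Without miR-92b-3p the sum stayed below 0 in all 16 alternatives (-0.45 to -0.17) and passed in none. miR-32-5p kept its sign in 16 and passed in 4. miR-363-5p ran from -0.72 to 0.19 with 1 library left out, reversing without C57BL/6 replicate 1. The share of miR-92b-3p differed by 11.4 percentage points, or 10.97 to 11.84 with 1 library left out, and by 21.9 points out of miR-92a-3p and miR-92b-3p counts. Its log2 ratio to the other seed members differed by 1.56 to 1.65 in all 10 alternatives. The log2 ratio of miR-92b-5p to miR-92b-3p (a difference of -0.70) is set by the added 1 CPM, since the 5p arm averaged 1.07 CPM in MRL/lpr and 0.292 CPM in C57BL/6, and nothing is read from it.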
